A study of Mus musculus with 24 samples.

Results

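Genes of blood coagulation and fibrinolysis are described here across mouse heart fibroblasts that received Erg, Sox17 or the combination labelled SEG. The 9 genes, chosen by name, are Vwf, F3, Thbd, Procr, Tfpi, Tfpi2, Plat, Plau and Pros1, out of 35727 genes in the deposited count table. All 9 passed the filter on low counts, as did 14804 genes in all. Messenger RNA was sequenced from 24 libraries in 8 groups of 3: control, Erg, Sox17 and SEG, each at day 3 and day 7, all from heart and all grown in EGM2, an endothelial growth medium. The controls are labelled fibroblast and the other 3 conditions iEC; the series text calls these cells aiECs and says that the acquisition of endothelial identity was the question. Sox17 and Erg are transcription factors of the SOX and ETS families that endothelial cells express. The labels do not spell out SEG, and the delivery of the factors and the promoter that drove them are not stated in what was used here. No label ties the 3 libraries of a group to separate cultures or animals, so the p-values reflect library-to-library spread, and that may be only technical.

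Coagulation starts when tissue factor, encoded by F3 and carried by fibroblasts and smooth muscle cells around vessels, meets factor VII in the blood. Resting endothelium lacks tissue factor and carries inhibitors of the cascade: TFPI, which blocks tissue factor with factor VII, and thrombomodulin (Thbd) with the endothelial protein C receptor (Procr), which turn thrombin towards activating protein C, whose cofactor is protein S (Pros1). Endothelial cells also store von Willebrand factor (Vwf), which tethers platelets, in Weibel-Palade bodies, and release tissue plasminogen activator (Plat), which starts the lysis of fibrin. Urokinase (Plau) activates plasminogen mainly at cell surfaces, and TFPI-2 (Tfpi2), despite its name, chiefly inhibits plasmin and other serine proteases of the matrix.

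The labels were first checked against the factors' own RNA. Levels here are CPM, a gene's counts relative to the scaled size of its library. Sox17 had no counts in the 6 control libraries and was between 461 and 1653 CPM in the Sox17 and SEG libraries, and Erg was at most 0.113 CPM in controls and between 836 and 7133 CPM in the Erg and SEG libraries. The summed level of 10 endothelial markers (Cdh5, Pecam1, Kdr, Tie1, Tek, Emcn, Cldn5, Esam, Robo4 and Egfl7) was 24.3 to 32.3 CPM in controls, 163 to 629 CPM in the Erg and Sox17 groups, 1471 to 1612 CPM in SEG at day 3 and 2066 to 2364 CPM in SEG at day 7. Between 19.6% and 25% of all genes were lower in each of the 6 comparisons with control, in which Tfpi and Plat were lower too. Of 10 fibroblast markers, 7 to 9 were lower in each, and 1 was higher in Erg at day 3. Their sum was 29969 to 32634 CPM in controls at day 3 and 23197 to 24735 CPM at day 7, and at day 7 it was 10303 to 11593 CPM in Erg, 6678 to 11031 CPM in Sox17 and 17591 to 19359 CPM in SEG. None was at 0 in any group, and their part in the lower levels of F3, Tfpi and Plat was not tested. Total counts per library ran from 18794422 to 44586227. Replicate 1 of Sox17 and replicate 1 of SEG at day 7 stood apart: ribosomal protein genes took 7.41% and 5.13% of their counts, against 2.98% to 4.69% in the other 22 libraries. For some results that rest on them, the value without both is also given. The other values were computed with both.

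Promoter sequences are shown for F3, Tfpi and Tfpi2, since these genes, the initiator of coagulation and the TFPI family, moved in different directions under the same factors. They are the bases upstream of the RefSeq start on the gene's own strand (RefSeq, GRCm38.p6, the sequence of mm10), cut where a transcript of GENCODE begins. Capitals mark matches to the ETS motifs AGGAAG and CGGAAG and the SOX motif ACAAT, on either strand.
F3, chr3:121723287-121723536, plus strand: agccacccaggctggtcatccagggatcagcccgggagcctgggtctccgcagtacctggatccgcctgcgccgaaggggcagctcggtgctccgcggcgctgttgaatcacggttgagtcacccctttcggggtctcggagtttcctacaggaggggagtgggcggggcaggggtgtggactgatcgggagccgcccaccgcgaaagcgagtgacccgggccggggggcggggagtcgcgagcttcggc
Tfpi, chr2:84476776-84477009, minus strand: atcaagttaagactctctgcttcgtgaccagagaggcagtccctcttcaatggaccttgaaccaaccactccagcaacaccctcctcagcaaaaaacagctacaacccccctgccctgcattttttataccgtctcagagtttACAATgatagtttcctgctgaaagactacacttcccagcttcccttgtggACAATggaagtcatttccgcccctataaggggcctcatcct
Tfpi2, chr6:3988920-3989108, minus strand: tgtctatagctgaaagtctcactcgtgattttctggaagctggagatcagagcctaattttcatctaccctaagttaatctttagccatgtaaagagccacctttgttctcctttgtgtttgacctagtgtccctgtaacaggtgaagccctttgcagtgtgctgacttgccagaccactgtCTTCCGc
The F3 window held no match to the 3 motifs. The Tfpi window shown held ACAAT beginning 107 and 57 bases upstream of the start, and the Tfpi2 window shown held CGGAAG on the opposite strand (CTTCCG as printed) 68 bases upstream. A second RefSeq start of Tfpi, not printed, had AGGAAG on the opposite strand 92 and 41 bases upstream and ACAAT on the opposite strand 124 bases upstream. The other two windows of Tfpi2 held no match. Of 8 upstream windows of 250 bases that RefSeq gave for 5 of the 9 genes, 3 held AGGAAG or CGGAAG and 2 held ACAAT. Over the 32817 distinct windows of that length that were counted, which did not cover every chromosome, 39.2% held AGGAAG or CGGAAG and 27.7% held ACAAT. These are matches of letters, not measured binding.

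Against control of the same day, the 9 genes did not move one way. With Erg, F3, Tfpi and Plat fell and Pros1 and Procr rose at both days. With Sox17, Thbd rose and Plat, Plau, Tfpi, Tfpi2 and Procr fell at both days. With SEG, Thbd and Tfpi2 rose and F3, Tfpi, Plat and Plau fell at both days, and Vwf rose at day 7. A call is an adjusted p under 0.05 in edgeR's quasi-likelihood fit, adjusted over all 14804 genes. At day 3, Erg had 2 of the 9 genes higher and 4 lower, where 22.6% and 23.5% of all genes tested were higher and lower. Sox17 had 1 higher and 6 lower (20.8% and 19.6% of all genes), and SEG 3 higher and 4 lower (20% and 20.2%). At day 7, Erg had 3 higher and 3 lower (23.7% and 24.8%), Sox17 3 higher and 5 lower (29.5% and 25%), and SEG 3 higher and 4 lower (22.5% and 21.8%). The median log2 change of the 9 genes was -0.33, -0.56 and 0.21 at day 3 and -0.20, -0.88 and -0.19 at day 7, in the order Erg, Sox17 and SEG, and the median over all genes lay between -0.02 and 0.05. The 3 comparisons of a day share their control libraries.

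**Figure D1:**
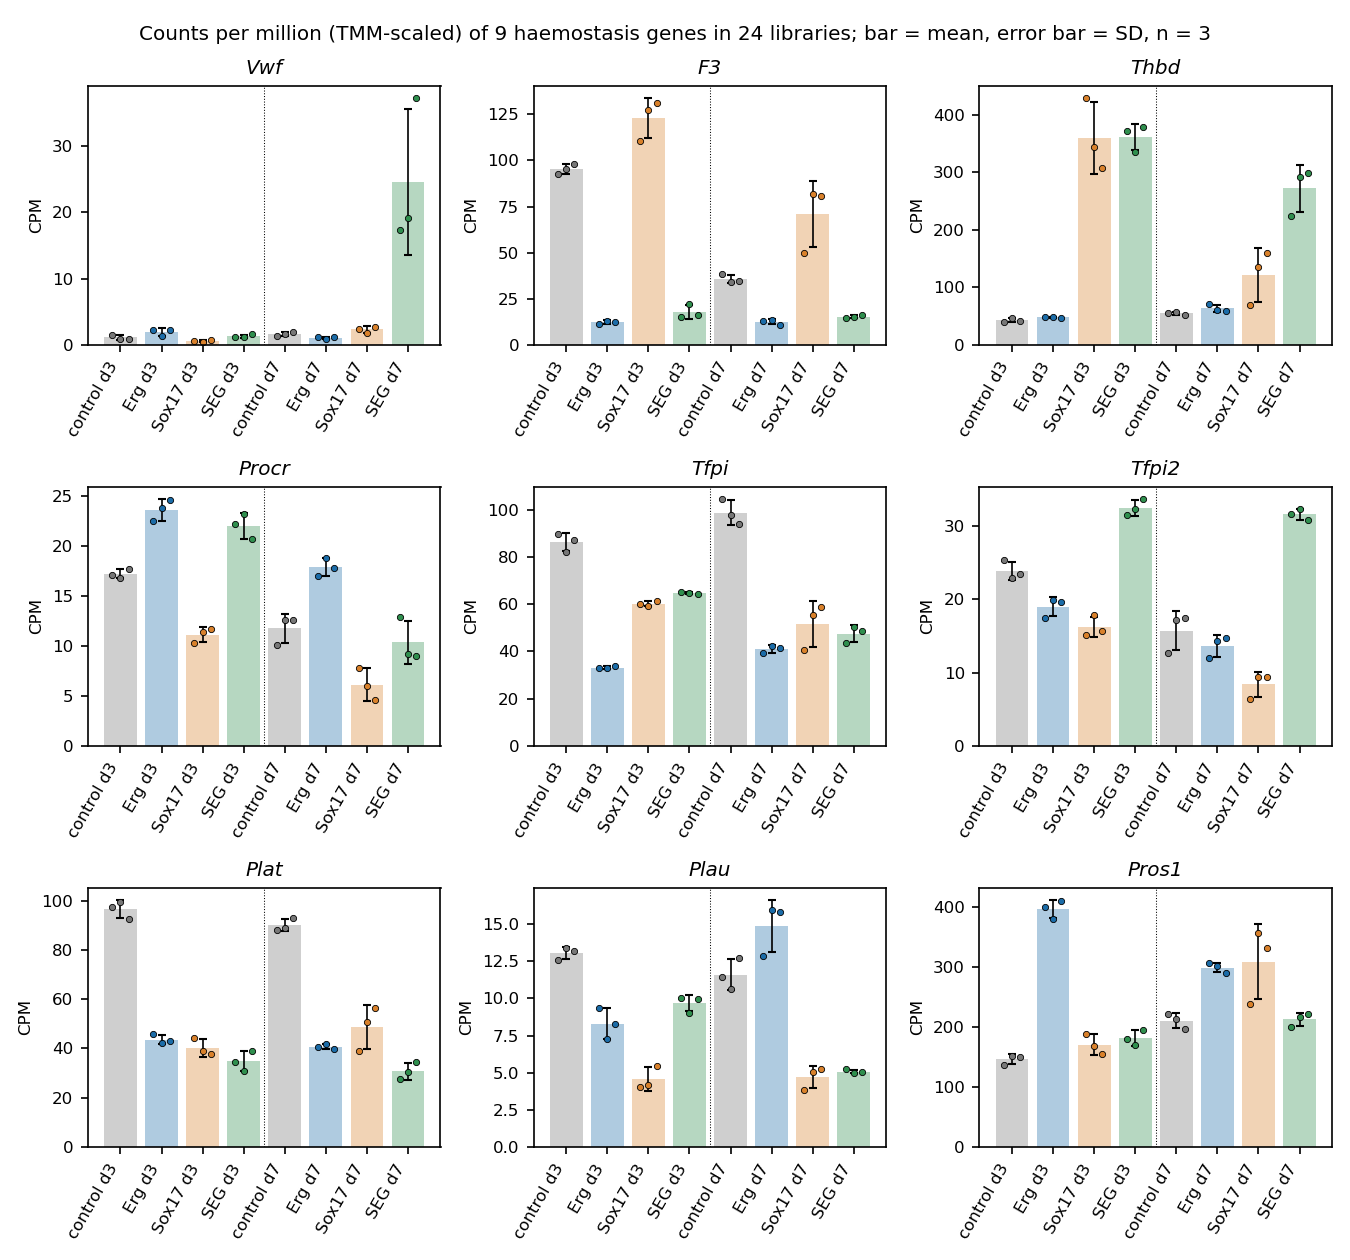
CPM of the 9 genes (vertical axes, from 0) in each of the 24 libraries, by group (horizontal axes, day 3 left and day 7 right of the dotted line); points are libraries in the order of their replicate numbers, bars the mean and error bars the SD of 3 libraries. Vwf is at 17.4 to 37.2 CPM in SEG at day 7 and at most 2.76 CPM elsewhere, Thbd is highest in Sox17 and SEG at day 3, and Plat is highest in the controls.

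F3 fell with Erg and with SEG at both days and rose with Sox17 alone at day 7. In the control libraries F3 was 92.8, 95.3 and 98.0 CPM at day 3. The Erg libraries of that day had 11.1, 13.1 and 12.4 CPM, the SEG libraries 15.0, 22.4 and 16.4 CPM and the Sox17 libraries 111, 127 and 131 CPM. Each of the 3 conditions lay wholly outside the range of the controls. The log2 change was -2.96 ± 0.17 (SE) with Erg, 7.80-fold lower (adjusted p = 2.68e-11), and -2.41 ± 0.16 with SEG, 5.31-fold lower (adjusted p = 2.72e-10). With Sox17 it was 0.37 ± 0.15 and was not called (adjusted p = 0.0672), although its libraries did not overlap with the controls; it was called in 3 of 29 alternatives, among them without the 2 libraries that stood apart (adjusted p = 0.00194). In a bulk library, fewer cells of a type and less RNA per cell cannot be told apart, which holds for every level given here.

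At day 7, F3 in controls was down to 38.3, 34.0 and 34.6 CPM, a log2 change of -1.42 ± 0.16 from day 3 (adjusted p = 8.62e-07). The Erg libraries stood at 13.1, 13.3 and 10.8 CPM and the SEG libraries at 14.5, 15.3 and 16.1 CPM, close to their own day 3 levels. Neither moved detectably between the days (log2 change 0.02 ± 0.16 in Erg and -0.23 ± 0.16 in SEG, adjusted p = 0.951 and 0.337). Against the day 7 controls F3 was 2.88-fold lower with Erg (adjusted p = 1.97e-07) and 2.33-fold lower with SEG (adjusted p = 2.96e-06). The Sox17 libraries had 50.1, 81.6 and 80.9 CPM, all above the controls, and a log2 change of 0.99 ± 0.16 (adjusted p = 2.32e-05), or 1.23 without the 2 libraries that stood apart. In SEG, F3 was lower than in Sox17 at both days, with log2 changes of -2.77 ± 0.17 and -2.21 ± 0.16 (adjusted p = 8.95e-11 and 1.54e-09). It was 0.55 ± 0.16 above Erg at day 3 (adjusted p = 0.00743), a call that was lost without SEG day 3 replicate 2 (highest adjusted p over all settings, 0.0751), and 0.31 ± 0.16 above Erg at day 7, not called (adjusted p = 0.128, 95% interval -0.01 to 0.63).

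Tfpi, the inhibitor of tissue factor, was lower in all 6 comparisons with control. Its level was 89.7, 82.1 and 87.1 CPM in controls at day 3, against 33.1, 32.8 and 33.7 CPM with Erg, 60.1, 59.4 and 61.5 CPM with Sox17 and 65.1, 64.8 and 64.2 CPM with SEG. At day 7 the controls had 104, 97.7 and 94.1 CPM, Erg 39.2, 42.2 and 41.5 CPM, Sox17 40.6, 55.6 and 58.8 CPM and SEG 43.5, 50.4 and 48.6 CPM. No Erg, Sox17 or SEG library reached the lowest control of its day. The largest of the 6 falls was that with Erg at day 3, by 1.38 ± 0.10 on the log2 scale (2.60-fold lower, adjusted p = 8.04e-10), and the smallest that with SEG at day 3, by 0.42 ± 0.10 (1.33-fold lower, adjusted p = 0.00183). The fall under SEG was larger at day 7, at -1.06 ± 0.10, and this change of effect was itself called (-0.64 ± 0.14, adjusted p = 0.00359). SEG and Sox17 did not differ detectably in Tfpi: the difference was 0.10 with a 95% interval of -0.09 to 0.29 at day 3 (adjusted p = 0.519), and -0.12 with an interval of -0.31 to 0.07 at day 7 (adjusted p = 0.344), which became called at -0.21 without the 2 libraries that stood apart (adjusted p = 0.00659).

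Tfpi2, the protease inhibitor related to TFPI, rose with SEG and fell with Sox17 alone. It was 25.3, 22.9 and 23.4 CPM in controls at day 3 and 12.6, 17.1 and 17.4 CPM at day 7. The SEG libraries had 31.5, 32.3 and 33.7 CPM at day 3 and 31.7, 32.4 and 30.9 CPM at day 7, so the level held while that of the controls fell by 0.60 ± 0.13 on the log2 scale (adjusted p = 0.00187). Every SEG library was above every control of its day. The log2 change with SEG was 0.45 ± 0.13 at day 3 (adjusted p = 0.0105) and 1.01 ± 0.13 at day 7 (adjusted p = 3.32e-06), and the gain between the days was 0.56 ± 0.19, not called (adjusted p = 0.0607) but called without the 2 libraries that stood apart (0.59, adjusted p = 0.00421). The Sox17 libraries, at 15.2, 17.9 and 15.7 CPM and at 6.45, 9.36 and 9.45 CPM, lay below all controls of their day, with log2 changes of -0.56 ± 0.13 and -0.91 ± 0.14 (adjusted p = 0.00209 and 1.19e-05). With Erg the values were -0.33 ± 0.13 and -0.20 ± 0.14, neither called (adjusted p = 0.0526 and 0.226), although the first was in 4 of 29 alternatives.

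**Figure D2:**
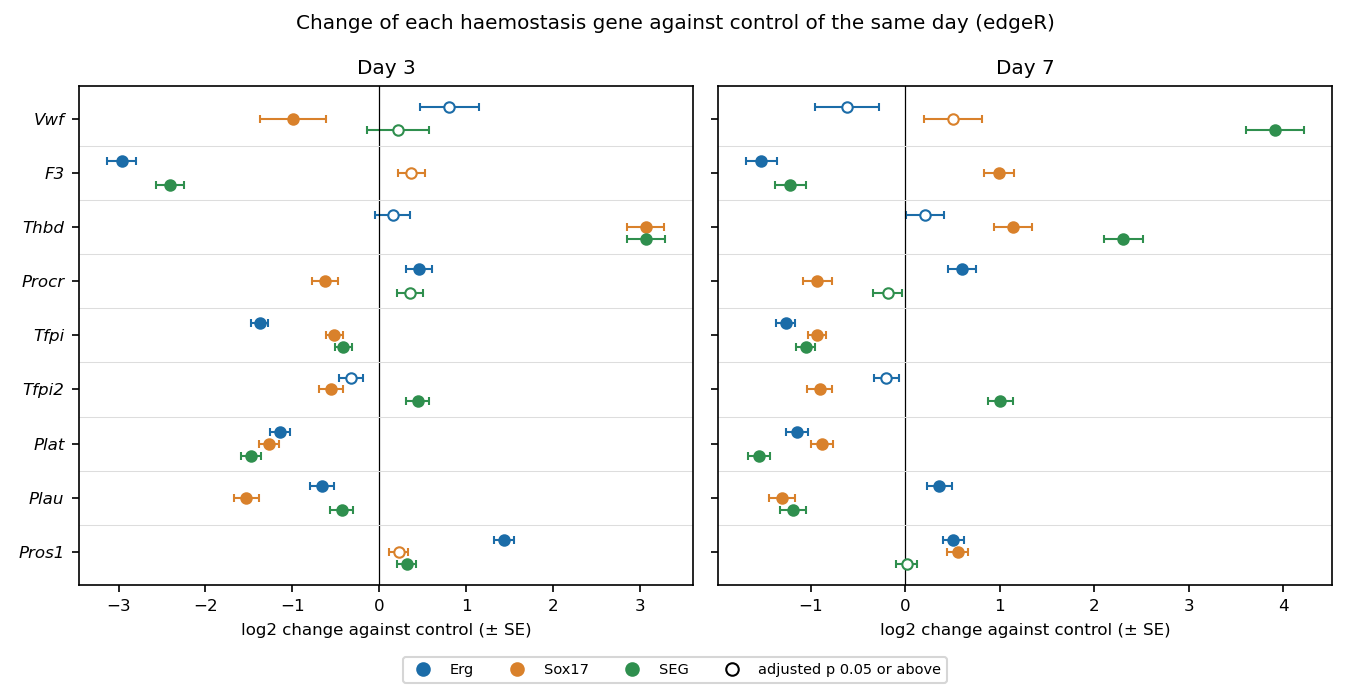
Log2 change of each gene (rows) against control of the same day (horizontal axis, with SE), at day 3 on the left and day 7 on the right; blue is Erg, orange Sox17 and green SEG, and filled points had an adjusted p under 0.05. Thbd under Sox17 and SEG lies near 3 at day 3, F3 under Erg and SEG lies below -1 at both days, and Plat lies left of 0 in all 6 comparisons.

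Thbd, the thrombin receptor that switches thrombin to the activation of protein C, rose with Sox17 and with SEG and not detectably with Erg. At day 3 the controls had 40.6, 47.3 and 41.2 CPM and the Erg libraries 48.7, 48.7 and 46.6 CPM, which overlap. The Sox17 libraries had 429, 344 and 307 CPM and the SEG libraries 372, 336 and 378 CPM, all above every control. The log2 change was 3.06 ± 0.22 with Sox17 (8.36-fold, adjusted p = 3.88e-10) and 3.07 ± 0.22 with SEG (8.41-fold, adjusted p = 4.17e-10), and SEG differed from Sox17 by 0.01 with a 95% interval of -0.38 to 0.40. With Erg it was 0.16 ± 0.20 at day 3 and 0.21 ± 0.20 at day 7 (adjusted p = 0.568 and 0.411); the day 7 libraries, at 70.5, 60.7 and 59.2 CPM, lay above all controls, and without the 2 libraries that stood apart the value was called (0.25, adjusted p = 0.0287).

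By day 7 Thbd in the Sox17 group had dropped to 68.9, 135 and 160 CPM, while the SEG libraries kept 225, 293 and 299 CPM. Controls stood at 55.9, 56.9 and 52.1 CPM, below every library of both conditions. The lowest Sox17 value is that of replicate 1, which stood apart and also had the lowest Sox17 RNA of its group (616 CPM against 1303 and 1322 CPM). A link between its Sox17 RNA and its Thbd level was not tested. The log2 change against control was 1.14 ± 0.20 with Sox17 (2.21-fold, adjusted p = 8.14e-05) and 2.31 ± 0.21 with SEG (4.95-fold, adjusted p = 1.44e-08), or 1.46 and 2.46 without both libraries that stood apart. SEG was above Sox17 by 1.17 ± 0.20 at this day (adjusted p = 9.71e-05), or by 1.01 without both libraries. The Sox17 effect shrank between the days by a log2 change of -1.92 ± 0.29 (adjusted p = 8.34e-05), and that of SEG by -0.76 ± 0.28, not called (adjusted p = 0.095) but called without both libraries (-0.60, adjusted p = 0.00335).

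Procr, which holds protein C at the cell surface, rose with Erg, by 1.37-fold and 1.52-fold, and fell with Sox17, by 1.55-fold and 1.91-fold. At day 3 it was 17.1, 16.8 and 17.7 CPM in controls, 22.5, 23.8 and 24.6 CPM with Erg, 10.3, 11.4 and 11.7 CPM with Sox17 and 22.2, 23.2 and 20.7 CPM with SEG. At day 7 it was 10.1, 12.6 and 12.6 CPM in controls, 17.0, 18.8 and 17.9 CPM with Erg, 7.81, 6.03 and 4.57 CPM with Sox17 and 12.9, 9.23 and 9.04 CPM with SEG. Erg lay above and Sox17 below all controls at both days, whereas SEG lay above them at day 3 and overlapped with them at day 7. The log2 change with Erg was 0.46 ± 0.15 at day 3 (adjusted p = 0.0167) and 0.60 ± 0.15 at day 7 (adjusted p = 0.00275). The first of these calls was lost without control day 3 replicate 2 or without Erg day 3 replicate 3 (highest adjusted p, 0.0551). With Sox17 it was -0.63 ± 0.15 and -0.93 ± 0.15 (adjusted p = 0.0021 and 3.75e-05). The SEG values of 0.36 ± 0.15 and -0.19 ± 0.15 were not called (adjusted p = 0.0659 and 0.351); without the 2 libraries that stood apart both were, in opposite directions, at 0.35 (adjusted p = 0.00208) and -0.34 (adjusted p = 0.0129).

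Pros1, the protein S gene, had the highest level per kilobase of transcript among the 9 genes in both Erg groups. It was also the highest in controls and in Sox17 at day 7. At day 3 it was 137, 151 and 150 CPM in controls and 399, 379 and 409 CPM with Erg, a rise of 1.44 ± 0.11 on the log2 scale (2.71-fold, adjusted p = 2.62e-09). The Sox17 libraries, at 188, 168 and 155 CPM, and the SEG libraries, at 180, 169 and 195 CPM, lay above all controls but far below Erg. The log2 change was 0.22 ± 0.11 with Sox17, called in 2 of 29 alternatives and not here (adjusted p = 0.124), and 0.31 ± 0.11 with SEG (adjusted p = 0.0299). The SEG call was lost without control day 3 replicate 1 or 3 and without SEG day 3 replicate 1 or 3 (highest adjusted p, 0.123). At day 7 the levels were 221, 214 and 196 CPM in controls, 306, 301 and 290 CPM with Erg, 238, 356 and 332 CPM with Sox17 and 199, 217 and 220 CPM with SEG. Erg and Sox17 lay above all controls (0.51 ± 0.11 and 0.55 ± 0.11, adjusted p = 0.000857 and 0.000308), and SEG overlapped with them (0.01, 95% interval -0.20 to 0.23, adjusted p = 0.94).

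Vwf was at 2.76 CPM or less in every library but those of SEG at day 7. The controls had 1.51, 0.941 and 0.921 CPM at day 3 and 1.30, 1.64 and 1.90 CPM at day 7, from 18 to 45 counts per library. At day 7 the SEG libraries had 17.4, 19.2 and 37.2 CPM, from 363, 467 and 913 counts. Replicate 3 was the highest, and all 3 were above every other library of the series. Against Erg and Sox17 of the same day SEG was higher by 4.53 ± 0.32 and 3.41 ± 0.29 on the log2 scale (adjusted p = 3.51e-10 and 1.07e-08), and by 15.1-fold against control. Over 29 alternatives, which included leaving out each library, the log2 change against control lay between 3.49 and 4.15, and it was 4.14 without the 2 libraries that stood apart. Between the days, Vwf in SEG rose by 4.24 ± 0.31 (adjusted p = 5.18e-09).

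With the single factors Vwf stayed within a few CPM of 0. Erg had 2.26, 1.27 and 2.28 CPM at day 3 and 1.11, 0.880 and 1.16 CPM at day 7, with log2 changes against control of 0.80 ± 0.34 and -0.62 ± 0.34, neither called (adjusted p = 0.0603 and 0.141), although the first was in 7 of 29 alternatives. Sox17 had 0.568, 0.383 and 0.758 CPM at day 3, below every control, and 2.36, 1.83 and 2.76 CPM at day 7, which overlaps with the controls. The day 3 value, -0.998 ± 0.38, was called (adjusted p = 0.042), but not without the filter on low counts, nor without control day 3 replicate 1 or 2, without Sox17 day 3 replicate 1 or 2 or without Sox17 day 7 replicate 1 (highest adjusted p, 0.204). The rise of Vwf in Sox17 from day 3 to day 7, by 2.04 ± 0.34, was called (adjusted p = 0.000128) and kept its call in all 29 alternatives. No SEG effect was detectable at day 3, at 1.12, 1.17 and 1.57 CPM (0.21, 95% interval -0.48 to 0.91).

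Plat, tissue plasminogen activator, was lower in all 6 comparisons, by 1.85-fold to 2.92-fold. The controls had 97.5, 99.7 and 92.7 CPM at day 3 and 88.3, 89.1 and 93.0 CPM at day 7. The Erg libraries ran from 39.6 to 45.7 CPM over both days, the Sox17 libraries from 37.6 to 56.6 CPM and the SEG libraries from 27.6 to 39.1 CPM. No Erg, Sox17 or SEG library overlapped with the controls. The log2 change with SEG was -1.47 ± 0.12 at day 3 and -1.55 ± 0.12 at day 7 (adjusted p = 2.47e-09 and 9.23e-10). SEG was lower than Erg at both days (-0.32 ± 0.11 and -0.40 ± 0.12, adjusted p = 0.0234 and 0.007); the first of these calls was lost without Erg day 3 replicate 1 or without SEG day 3 replicate 1 or 2 (highest adjusted p, 0.127). It was lower than Sox17 at day 7 (-0.66 ± 0.11, adjusted p = 0.000104), with no call at day 3 (-0.21 ± 0.11, adjusted p = 0.203). Plat did not move detectably from day 3 to day 7 in any of the 4 conditions. In Sox17, at 0.28 ± 0.11 (adjusted p = 0.073), it was called in 3 of 29 alternatives, among them without the 2 libraries that stood apart (0.43, adjusted p = 0.000215).

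Plau, urokinase, was lower with Sox17 and SEG at both days and changed direction with Erg. It was 12.6, 13.4 and 13.2 CPM in controls at day 3 and 11.5, 10.6 and 12.7 CPM at day 7. The Sox17 libraries had between 3.84 and 5.47 CPM over both days, with log2 changes of -1.53 ± 0.14 and -1.31 ± 0.14 (adjusted p = 1.79e-08 and 1.14e-07). The SEG libraries went from 10.02, 9.05 and 9.94 CPM at day 3 to 5.21, 4.96 and 5.05 CPM at day 7, all below the controls, with changes of -0.43 ± 0.13 (adjusted p = 0.0137) and -1.19 ± 0.14 (adjusted p = 5.52e-07). The former call was lost without SEG day 3 replicate 2 (adjusted p = 0.0604). The Erg libraries had 9.38, 7.27 and 8.25 CPM at day 3, below the controls (-0.66 ± 0.14, adjusted p = 0.000494), and 12.9, 15.9 and 15.8 CPM at day 7, above them (0.36 ± 0.13, adjusted p = 0.0323). The day 7 call was lost without control day 7 replicate 1 or 2 or without Erg day 7 replicate 2 or 3 (highest adjusted p, 0.1246), while the change of the Erg effect between the days, 1.01 ± 0.19, was called (adjusted p = 0.000665). Macrophages also express Plau: 15 of 16 macrophage markers were higher and 1 was lower in Erg at day 7, where 23.7% of all genes were higher and 24.8% lower. The sum of the 16 was 913 to 946 CPM, against 179 to 229 CPM in the controls of that day and 205 to 221 CPM in Erg at day 3. None was at 0 in any group. The part of these markers in the Plau result was not tested.

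Compared per kilobase of the longest coding transcript, the order of the 9 genes differed between groups and, within each condition, between days. In controls at day 3 the highest were F3 at 51.0 ± 1.38 CPM per kilobase (SD, n = 3), Pros1 at 44.2 ± 2.41 and Plat at 38.3 ± 1.42, and Vwf was the lowest at 0.127 ± 0.04. In controls at day 7 the highest were Pros1 at 63.7 ± 3.96, Plat at 35.7 ± 1.002 and Tfpi at 24.9 ± 1.33, with F3 in the fourth place at 19.04 ± 1.26 and Thbd in the fifth at 14.8 ± 0.685. In SEG at day 7 the highest were Thbd at 73.1 ± 11.1 CPM per kilobase, Pros1 at 64.3 ± 3.43 and Tfpi2 at 20.7 ± 0.473, with F3 in the sixth place at 8.18 ± 0.43. Thbd and Pros1 were also the upper pair in SEG at day 3, at 97.2 ± 6.21 and 54.9 ± 3.93. In Sox17 the highest was Thbd at day 3, at 96.7 ± 16.8, and Pros1 at day 7, at 93.4 ± 18.9. Vwf, even at its SEG day 7 maximum, reached 2.78 ± 1.24 CPM per kilobase, next to Plau at 2.17 ± 0.05.

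The SEG effect was then set against the sum of the Erg and Sox17 effects on the log2 scale, all 3 measured from the same controls. The labels do not give the makeup of SEG, so the sum is an arithmetic reference only. Erg RNA was lower in SEG (1254 to 1281 CPM at day 3) than in Erg alone (7039 to 7133 CPM), and Sox17 RNA was 955 to 1054 CPM in SEG against 1549 to 1653 CPM in Sox17 alone, so the levels of the factors were not matched. At day 3, 4 of the 9 genes were above the sum and 1 below it (18.2% and 17.8% of all genes), and at day 7, 5 were above and 2 below (23.8% and 25%). Thbd at day 3 did not differ detectably from the sum (SEG 3.07, sum 3.22, difference -0.15 ± 0.28, adjusted p = 0.739), and so did F3 (SEG -2.41, sum -2.60, difference 0.19 ± 0.22, adjusted p = 0.569). Both inhibitors of the TFPI family were above it at both days: Tfpi by 1.48 ± 0.14 and 1.15 ± 0.14 (adjusted p = 6.87e-08 and 1.31e-06) and Tfpi2 by 1.33 ± 0.19 and 2.12 ± 0.19 (adjusted p = 1.28e-05 and 2.69e-08). Pros1 was below it at both days (-1.35 ± 0.16 and -1.05 ± 0.16, adjusted p = 1.19e-06 and 1.9e-05). Vwf at day 7 showed the largest departure of the 9 genes, 4.03 ± 0.44 above a sum of -0.12 (adjusted p = 3.41e-07). Plat was above the sum by 0.94 ± 0.16 at day 3 (adjusted p = 0.000117) and by 0.49 ± 0.16 at day 7 (adjusted p = 0.0181), the latter lost without SEG day 7 replicate 3 and without the filter on low counts (adjusted p = 0.0612 and 0.059). The others called were Plau at day 3 (1.75 ± 0.19 above, adjusted p = 5.79e-07) and, at day 7, Thbd (0.96 ± 0.28 above, adjusted p = 0.00887) and F3 (-0.68 ± 0.23, adjusted p = 0.0172).

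**Figure D3:**
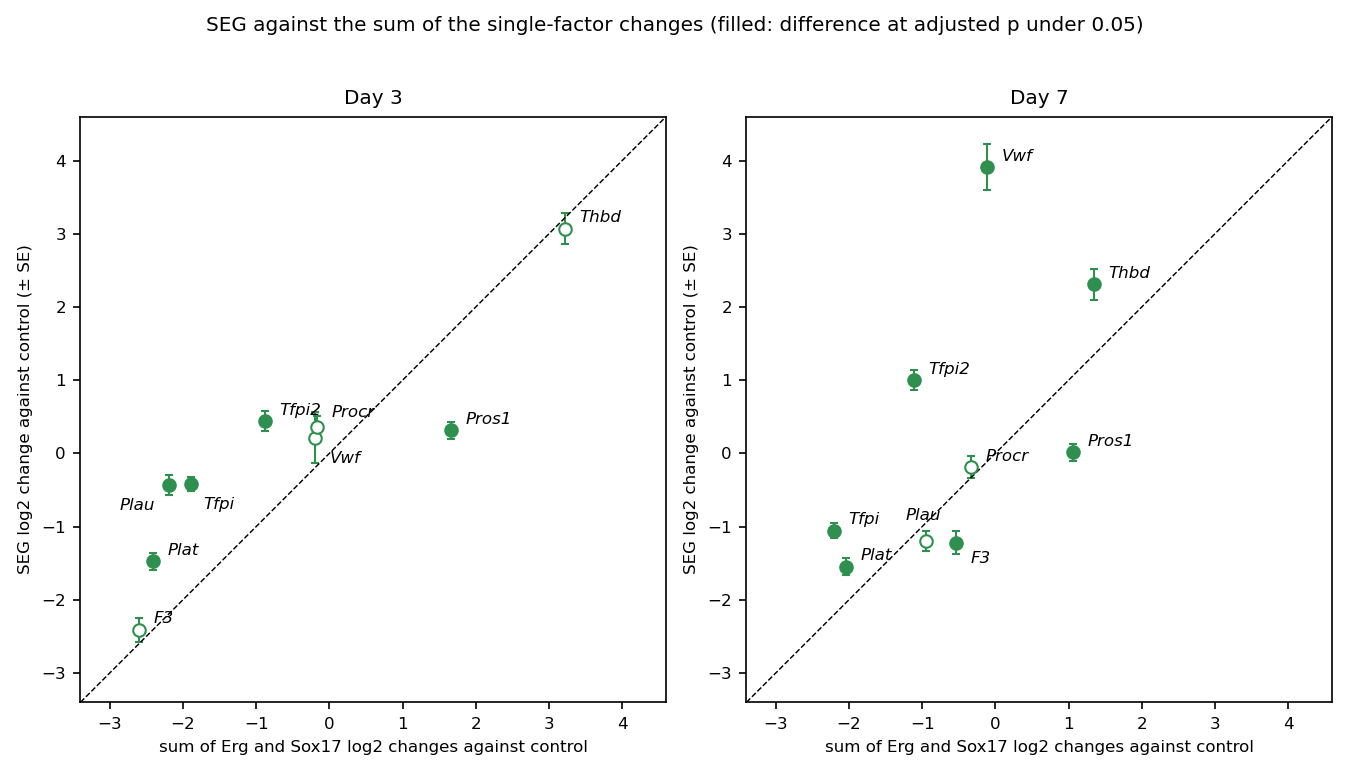
SEG log2 change against control (vertical axis, with SE) against the sum of the Erg and Sox17 log2 changes (horizontal axis, drawn without its error), at day 3 and day 7; the dashed line marks equality and filled points differed from the sum at an adjusted p under 0.05. Vwf at day 7 lies at 3.91 over a sum of -0.12, Tfpi, Tfpi2 and Plat lie above the line at both days and Pros1 below it.

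Directly against Erg, SEG had 4 of the 9 genes higher and 2 lower at day 3 (25.7% and 25.3% of all genes) and 3 higher and 4 lower at day 7 (24.7% and 24.8%). Against Sox17 it had 4 higher and 1 lower at day 3 (14% and 14.2%) and 4 higher and 3 lower at day 7 (18.8% and 21.2%). With the replicate number as a block within the 6 libraries of the latter comparison, the same count of 7 of the 9 genes was called, and 3913 of all genes against 5910 without the block. Thbd was above Erg at both days (2.91 ± 0.21 and 2.10 ± 0.21, adjusted p = 6.34e-10 and 4.93e-08), and Procr was above Sox17 at both days (0.98 ± 0.15 and 0.75 ± 0.15, adjusted p = 3.39e-05 and 0.000619). Tfpi2 was above both single factors at both days, by 0.77 ± 0.13 to 1.91 ± 0.14. Sox17 against Erg had 3 higher and 4 lower at day 3 (28.4% and 26.8% of all genes) and 4 higher and 3 lower at day 7 (29.1% and 25.9%). F3 gave the widest gap between the single factors at both days, at 3.33 ± 0.17 and 2.52 ± 0.17 higher with Sox17 (adjusted p = 1.98e-12 and 1.05e-10), and Procr was lower with Sox17 by a log2 change of -1.08 ± 0.15 and -1.53 ± 0.15 (adjusted p = 3.79e-06 and 5.12e-08).

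Between day 3 and day 7 the control fibroblasts themselves changed: 1 of the 9 genes was higher and 3 were lower at day 7 (16.1% and 13.4% of all genes). The higher one was Pros1 (0.53 ± 0.11, adjusted p = 0.00113), and F3, Tfpi2 and Procr were lower, Procr with a call (-0.55 ± 0.15, adjusted p = 0.00953) that was lost without control day 7 replicate 1 (adjusted p = 0.0604). Procr was lower at day 7 in all 4 conditions, with log2 changes from -0.40 ± 0.15 in Erg to -1.09 ± 0.15 in SEG. The Erg call for Procr (adjusted p = 0.0466) was lost in 21 of 29 alternatives. Over the same days Erg had 2 higher and 3 lower (15.6% and 14.4% of all genes), Sox17 2 higher and 4 lower (16.6% and 12.9%) and SEG 1 higher and 3 lower (14.3% and 12.9%). In Erg, Plau rose by 0.84 ± 0.13 (adjusted p = 7.44e-05) and Pros1 fell by 0.41 ± 0.11 (adjusted p = 0.00872), against its rise in controls. In SEG, Plau fell by 0.93 ± 0.14 (adjusted p = 3.55e-05). The effect against control differed between the days for 4 genes with Erg, 3 with Sox17 and 4 with SEG, while 19.7%, 14.3% and 11.9% of all genes were called; their values stand in the closing section.

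Other genes of haemostasis were read from 6 lists with 55 genes, of which 36 passed the filter. The genes of the fibrinogen chains, prothrombin and factors VII, IX, XI and XII, which the liver makes, did not pass. Against control, Erg had 9 of the 36 higher and 5 lower at day 3 (22.6% and 23.5% of all genes) and 14 higher and 9 lower at day 7 (23.7% and 24.8%). Sox17 had 7 higher and 14 lower at day 3 (20.8% and 19.6%) and 6 higher and 17 lower at day 7 (29.5% and 25%), and SEG 7 higher and 10 lower at day 3 (20% and 20.2%) and 8 higher and 13 lower at day 7 (22.5% and 21.8%). The median log2 change of the 36 genes was 0.12 and 0.08 with Erg, -0.09 and -0.65 with Sox17 and -0.13 and -0.12 with SEG, at day 3 and day 7. Per list, in SEG at day 7 with the shares of all genes just given, 1 of 10 tested coagulation factors and their maturation genes was higher and 4 were lower, 1 of 6 anticoagulant inhibitors higher and 3 lower, 2 of 6 fibrinolysis regulators higher and 2 lower, 2 of 6 Weibel-Palade body and von Willebrand factor partners higher and 1 lower, 1 of 5 platelet inhibitors higher and 3 lower, and 1 of 3 thrombin receptors higher and none lower.

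Among the regulators of fibrinolysis, Plaur, the urokinase receptor, was higher in all 6 comparisons, from 13.7 ± 1.13 CPM (SD, n = 3) in controls to 105 ± 7.82 CPM in Erg at day 3, a log2 change of 2.94 ± 0.13 (adjusted p = 4.45e-13). Lrp1, an endocytic receptor that clears plasminogen activators, fell with Sox17 and SEG at both days and with Erg at day 7, to -2.28 ± 0.22 with Sox17 at day 7 (adjusted p = 3.69e-08). S100a10, which with annexin A2 binds Plat and plasminogen at the cell surface, rose with Sox17 (1.07 ± 0.23 and 1.78 ± 0.24, adjusted p = 0.000945 and 2.78e-06) and with Erg at day 7 (0.65 ± 0.23, adjusted p = 0.0261). Its partner Anxa2 rose with Sox17 at both days (0.54 ± 0.17 and 1.20 ± 0.17, adjusted p = 0.0159 and 7.58e-06) and with Erg and SEG at day 7 (0.46 ± 0.17 and 0.65 ± 0.17, adjusted p = 0.0326 and 0.00387).

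The lists of anticoagulant inhibitors and of coagulation factors and their maturation come next. Serpine2, which blocks thrombin and urokinase, was lower in all 6 comparisons. Its log2 changes ran from -0.23 ± 0.08 in Erg at day 3 to -1.96 ± 0.08 in SEG at day 7 (adjusted p = 0.019 and 5.48e-14). Gas6 was counted in the list of anticoagulant inhibitors but is a vitamin K-dependent ligand related to protein S, so its level is not that of an inhibitor. It stood at 5105 ± 375 CPM in controls at day 7 and at 338 ± 28.4 CPM in SEG (-3.92 ± 0.10, adjusted p = 6.77e-17). It fell in the other comparisons too, except that at day 3 Gas6 did not differ detectably with Erg (0.08 ± 0.09, adjusted p = 0.505). Anxa5, which covers phosphatidylserine, rose with Sox17 and SEG at both days and with Erg at day 7, by at most 0.87 ± 0.12. Ggcx, the carboxylase that vitamin K-dependent factors need, fell with Sox17 at both days (-0.67 ± 0.16 and -1.17 ± 0.16, adjusted p = 0.00189 and 4.02e-06) and with Erg and SEG at day 7 (-0.95 ± 0.16 and -0.60 ± 0.16, adjusted p = 5.98e-05 and 0.00429). Lman1, which carries factors V and VIII out of the endoplasmic reticulum, fell with Sox17 at both days (-0.57 ± 0.14 and -0.91 ± 0.14, adjusted p = 0.00218 and 1.24e-05). F8, factor VIII, rose with Erg at both days, from 3.27 ± 0.202 CPM in controls to 12.2 ± 1.61 CPM at day 7 (1.89 ± 0.29, adjusted p = 2.23e-05). F13a1, the fibrin-crosslinking enzyme that macrophages also make, was 18.8 ± 1.61 CPM in Erg at day 7 against 5.99 ± 1.04 CPM in controls (1.65 ± 0.37, adjusted p = 0.00103) and fell in Sox17 and SEG; the part of the macrophage markers that were higher in that Erg group was not tested.

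Partners of Vwf in the Weibel-Palade body were measured beside it. Selp, P-selectin, was 41.5 ± 4.68 CPM in Erg at day 3 against 3.79 ± 0.961 CPM in controls (3.45 ± 0.34, adjusted p = 6.06e-08) and also rose with Erg at day 7. At day 7 it fell with SEG (-2.01 ± 0.32, adjusted p = 2.89e-05), the group in which Vwf rose, and it fell with Sox17 at both days. Angpt2, angiopoietin-2, rose with SEG at day 3 and day 7 (2.47 ± 0.18 and 0.78 ± 0.17, adjusted p = 1.08e-09 and 0.000631) and with Erg at both days, and fell with Sox17 at day 7 (-1.73 ± 0.18, adjusted p = 8.06e-08). Of the platelet inhibitors of endothelium, Entpd1, the ectonucleotidase CD39 that removes ATP and ADP, was higher in all 6 comparisons, from 2.28 ± 0.547 CPM in controls to 88.1 ± 1.19 CPM in Erg at day 3 (5.28 ± 0.20, adjusted p = 5.5e-14), and Nt5e, the next enzyme of that pathway, was lower in all 6, with log2 changes from -1.03 ± 0.20 to -1.64 ± 0.20. Ptgs1, cyclooxygenase-1, was lower in all 6 (-3.59 ± 0.09 in Sox17 at day 7, adjusted p = 8.77e-17), and Ptgis, prostacyclin synthase, fell with Sox17 and SEG at both days and rose with Erg at day 3 (0.82 ± 0.20, adjusted p = 0.0023). F2r, the thrombin receptor PAR1, was called only in SEG at day 7 (0.95 ± 0.26, adjusted p = 0.0051).

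**Figure D4:**
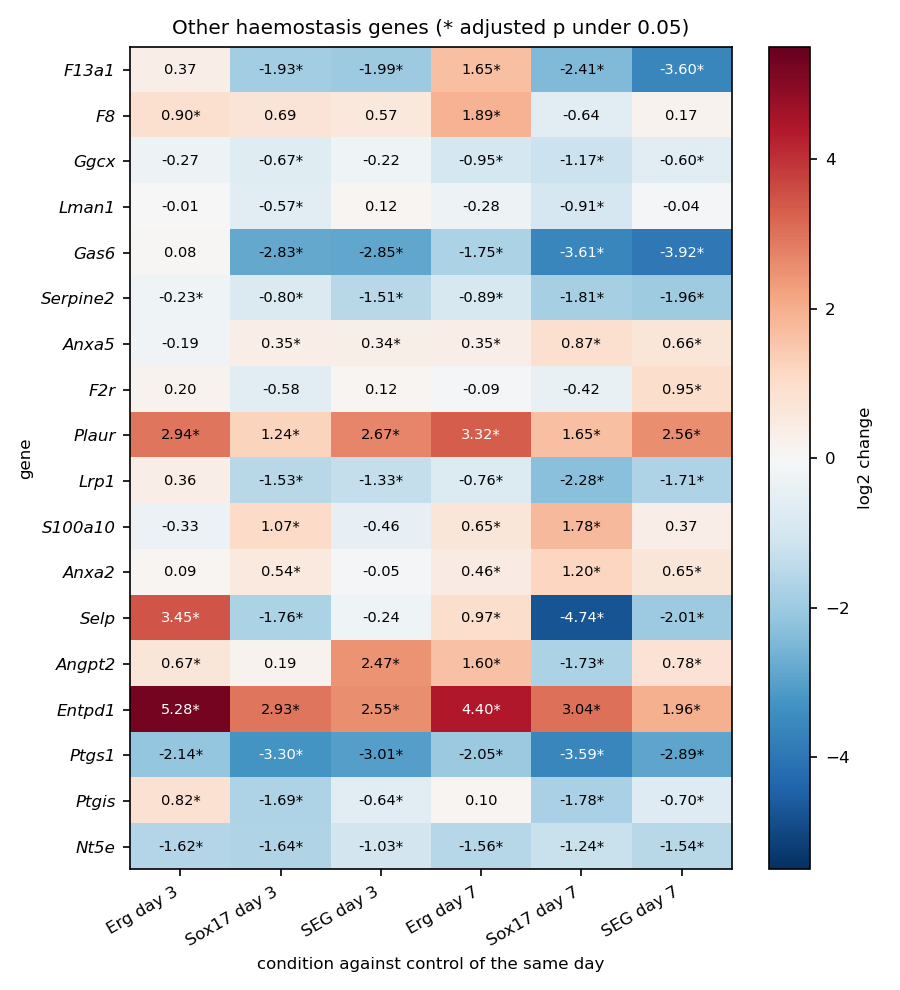
Log2 change (colour and printed value) of 18 other haemostasis genes (rows) against control of the same day in the 6 comparisons (columns); an asterisk marks an adjusted p under 0.05. Plaur and Entpd1 are red and Ptgs1, Nt5e and Serpine2 blue in every column, and Selp runs from 3.45 in Erg at day 3 to -4.74 in Sox17 at day 7.

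Markers of other cells moved with some of these groups. Of 6 smooth muscle markers, 5 were higher and 1 lower in Sox17 at day 7, where F3 rose, and equally in SEG at both days, where F3 fell, and in Sox17 at day 3. At day 7 their sum was 2530 to 4440 CPM in Sox17 and 1432 to 1844 CPM in SEG against 86.8 to 101 CPM in the controls, and none was at 0 in any group. The part of these markers in the F3 result was not tested. The sum of 8 platelet and megakaryocyte markers, of which 2 to 5 were at 0 in each group, stayed between 3.18 and 12.9 CPM in all libraries. It was 3.18 to 5.02 CPM in SEG at day 7, where Vwf, which platelets also hold, was highest. The part of platelet markers in the Vwf result was not tested. Mesothelial markers, a sum of 6 genes, ran from 1.99 to 23.6 CPM and cardiomyocyte markers, also 6, from 5.62 to 94.5 CPM. Thbd rose about alike with SEG and Sox17 at day 3, where 10 of 10 endothelial markers were higher with SEG and 6 with Sox17. At day 7, where Vwf rose with SEG, 9 of 10 were higher with SEG and 7 with Sox17. With Erg, 8 of 10 were higher and 1 lower at both days, yet neither Thbd nor Vwf was called against control. The background share of higher genes was 20% with SEG, 20.8% with Sox17 and 22.6% with Erg at day 3. For day 7 it was 22.5%, 29.5% and 23.7%. The part of endothelial markers in the Thbd and Vwf results was not tested.

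For each gene the 3 genes with the most similar profile over the 8 group means of log2 CPM were listed, as a description over 8 points that share libraries. Only tested genes with a mean of 10 CPM or more in a group were searched, and predicted genes and genes without a symbol were skipped. For F3 these were Ankrd29 (Pearson's r = 0.988), Atp10a (0.970) and Disp1 (0.965). Thbd was most like Arl10 (0.981), Tbc1d9 (0.9752) and Coa7 (0.972), and Plat most like Jam2 (0.981), Dact3 (0.972) and Fam20c (0.971). For Vwf, whose profile is one high group, they were Mnat1 (0.929), Smad6 (0.918) and Arhgef26 (0.910). The first for the other genes were Tnfrsf22 for Procr (0.985), Prorsd1 for Tfpi (0.980), Tmem184b for Tfpi2 (0.976), Paox for Plau (0.956) and Mpdu1 for Pros1 (0.971). None of the 9 genes was in the list of another.

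The genes lie on 6 chromosomes of mm10. Thbd (chr2:148404466-148408188, minus strand), Procr (chr2:155751117-155755471, plus) and Tfpi (chr2:84432855-84476775, minus) are on chromosome 2, and Vwf (chr6:125546774-125686679, plus) and Tfpi2 (chr6:3962595-3988919, minus) on chromosome 6. F3 is at chr3:121723537-121735048 (plus), Plat at chr8:22757727-22782844 (plus), Plau at chr14:20836660-20843385 (plus) and Pros1 at chr16:62854307-62929346 (plus). GENCODE lists all 9 as protein coding, and no other gene overlaps any of them.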

How the data were processed

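Messenger RNA of 24 libraries of mouse heart fibroblasts was measured, 3 for each of 8 groups. Per the labels, RNA was isolated with RNeasy and Novogene made the libraries. The authors deposited unnormalized counts, as whole numbers, for each gene; the submitters' processing notes name Salmon, DESeq2 and mm10, with no role, version, annotation or strand setting. Columns were matched to libraries by the names in the labels.

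Counts were analysed with edgeR 4.0.16 (limma 3.58.1, R 4.3.3). Genes passed filterByExpr with a minimum count of 10, which left 14804 of 35727, and libraries were scaled by TMM. A quasi-likelihood model of 8 group means was fitted to all libraries, and 21 comparisons were tested 2-sided with Benjamini-Hochberg adjustment over all genes tested and a threshold of 0.05. Levels are CPM of the TMM-scaled library size, and log2 changes carry a prior count of 0.125 and their SE. Levels per kilobase use the longest protein-coding transcript of GENCODE's mm10 annotation, and profiles were compared on log2 CPM with a prior count of 2. The fit was also run on simulated counts, for SEG against control at day 7 and for the change of the SEG effect. No simulated library was made to stand apart, so that run cannot show how the fit handles such libraries. The depth, 18794422 to 44586227 counts per library, gives Vwf as few as 13 counts in a library, so its changes are the least precise.

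The 9 genes and all gene lists were chosen with earlier results of these data known. From each list of other haemostasis genes, those called in at least 1 of the 6 comparisons with control and at 10 CPM or more in a group were named, at most 4 per list in order of their largest change; 1 gene of these lists is not reported here and was left out of its list. Alternatives were size factors of the RLE kind, no filter, DESeq2 1.42.0, the replicate number as a block, leaving out each library in turn and leaving out both day 7 libraries that stood apart. A block restricted to the 6 Sox17 and SEG libraries of day 7 was added after the data were seen. The replicate numbers deviated together in 1 of 16 pairs of groups, SEG and Sox17 at day 7 (correlations of 0.396 to 0.690). The p-values given for SEG against Sox17 at day 7 are without that block. The count of calls with it and the highest adjusted p over all alternatives are in the closing section. No 2 libraries of a group agreed within sampling noise, the lowest chi-square per gene being 2.83. Promoter windows and their motif matches are from RefSeq's GRCm38.p6 annotation.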

Additional observations from a re-analysis of the deposited data

Results flagged for a closer look

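The effect of a factor against control differed between day 7 and day 3 for 11 results, each by the test of that difference in edgeR's fit. The Erg effect on Vwf moved from above to below 0, not called at either day (change of log2 effect -1.42, adjusted p = 0.0431), became smaller for Pros1 (-0.93, adjusted p = 0.000239), was a lesser fall for F3 (1.44, adjusted p = 0.000119) and turned from lower to higher for Plau (1.01, adjusted p = 0.000665). For F3, the Erg libraries kept their level while the controls fell. The Sox17 effect changed for Vwf (1.498, adjusted p = 0.0459), Thbd (-1.92, adjusted p = 8.34e-05) and Tfpi (-0.42, adjusted p = 0.0484), of which those of Vwf and Tfpi were lost in 18 and 24 of 29 alternatives. The Vwf change with Erg was lost in 13. The SEG effect changed for Vwf (3.70, adjusted p = 1.6e-05), F3 (1.19, adjusted p = 0.00111), Tfpi (-0.64, adjusted p = 0.00359) and Plau (-0.76, adjusted p = 0.012), and these 4 calls held in all 29 alternatives.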

How the results depend on the processing

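No called change of the 9 genes reversed in any alternative. Leaving out both day 7 libraries that stood apart made 29 further changes of these genes called and lost none. It gave 7 of the 9 genes called for the change of the Sox17 effect (3 before) and 7 for the change of the SEG effect (4 before). Over all genes it gave 7275 calls for SEG against Sox17 at day 3, 8233 for SEG against the sum at day 3, 7359, 8162 and 6761 between the days in control, Erg and SEG, and 6593, 3695 and 3774 for the change of the Erg, Sox17 and SEG effects, each over 1.5 times the count with them. Some of these comparisons, such as SEG against Sox17 at day 3, hold neither library. All groups share the estimate of the spread, and the filter and scaling were also redone. The part of each was not tested. Without the filter on low counts, 3 of the 9 genes were called between the days in Erg (5 before) and 1 for the change of the Sox17 effect (3 before). Over all genes, 3862 were called between the days in Erg (4447 before) and 1718 for the change of the Sox17 effect (2113 before). The cause was not tested.

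Leaving out 1 library at a time, genes called of the 9 ran from 3 to 7 between the days in Erg, from 1 to 5 for the change of the Sox17 effect and from 4 to 8 for that of SEG. Over all genes the counts ran from 3462 to 7121 and from 3283 to 6179 between the days in Erg and SEG, and from 2339 to 5397, from 1592 to 3199 and from 1394 to 3335 for the change of the Erg, Sox17 and SEG effects. The highest of these came without Sox17 day 7 replicate 1, except that for the change of the Sox17 effect, which came without Sox17 day 7 replicate 3.

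Values that changed sign were all uncalled. For the change of the Erg effect, Plat was 0.0040 with RLE size factors, 0.020 with no filter, 0.0041 with DESeq2, 0.032 without both libraries and -0.025 to 0.067 leaving out 1, Thbd -0.030 to 0.10 and Tfpi2 -0.0096 to 0.21. For the change of the SEG effect, Plat was 0.035 without both and -0.16 to 0.036 leaving out 1. SEG against Sox17 gave Thbd at day 3 as -0.0034 with no filter and -0.10 to 0.15 leaving out 1, and Plau at day 7 as -0.038 without both and -0.020 to 0.19 leaving out 1. Leaving out 1 also gave -0.036 to 0.10 for Pros1 in SEG against control at day 7, -0.069 to 0.20 for Pros1 in Sox17 against Erg at day 7, -0.031 to 0.11 for F3 between the days in Erg, -0.035 to 0.20 for Plau between the days in Sox17, and, against the sum, -0.0023 to 0.30 for F3 at day 3 and -0.080 to 0.36 for Procr at day 7. The cause was not tested.

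With the replicate number as a block over all libraries, 8 of the 9 genes were called for Erg against control at day 3 (6 without). Over all genes, 6817 were called in that comparison (6827 without). No count of calls moved by over 1.5 times with this block. Same-numbered libraries deviated together in 1 of 16 pairs of groups, Sox17 and SEG at day 7, and 9 of 24 libraries correlated best with their own number. Deviations were taken from the mean of a group's libraries, and replicate 1 stood apart in both of these groups. The correlations of the replicates in that pair are therefore not independent of each other. The block within the 6 Sox17 and SEG libraries of day 7 gave 3913 genes called for SEG against Sox17 and changed no call of the 9 genes. Over the 30 alternatives of that comparison, this block among them, the highest adjusted p was 0.00043 for Vwf, 0.00071 for F3 and 0.00631 for Thbd. It was 0.018 for Procr, 0.00102 for Tfpi2, 0.0121 for Plat and 0.0365 for Pros1. Depth limits Vwf most, with 13 to 104 counts per library outside SEG at day 7.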
